A study of Mus musculus with 4 samples.

Results

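The Myc, Max and Mxd network is a group of transcription factors that share 1 partner. Its members were taken by gene symbol from the count table: Myc, Mycn, Max, Mxd1, Mxd3, Mxd4, Mxi1, Mnt and Mga. All 9 were among the 24391 genes of the table, and 8 of them passed the filter on low counts that left 12266 genes for the test. Beko is a line of T-cell progenitors from the mouse in which Notch signaling is constitutively active, and DAPT is a γ-secretase inhibitor (GSI) that stops the release of the Notch intracellular domain. In the GSI condition (2 libraries), cells were kept in DAPT for 48 h. In the washout condition (2 libraries), cells went through the same 48 h in DAPT, the inhibitor was washed away, and culture went on for 24 h without it. The labels give the DAPT dose as 10 mg/ml, whereas the methods of the study give it in μg instead of mg. Both conditions come from 1 cell line, all cells were exposed to the inhibitor, and the washed cells were cultured for longer, so that renewed Notch activity and longer culture cannot be told apart. Nothing in the labels says that the replicates were separate cultures, so that p-values measure the spread between these libraries.

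Myc and its paralog Mycn bind DNA only as a pair with Max, mostly at the E-box CACGTG, and raise transcription of genes for growth, ribosome production and metabolism. Max also pairs with itself and with Mxd1, Mxd3, Mxd4, Mxi1, Mnt and Mga. These pairs compete for the same sites, and the Mxd proteins and Mnt bring in Sin3 and histone deacetylases that lower transcription. In T-cell progenitors and T-cell leukemia, Myc is known as a direct target of Notch, and the Mxd genes are best known from cells that leave the cycle and differentiate.

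Total counts lay between 13716199 and 36364200 per library, with replicate 1 the deeper one in both conditions. Of the pre-T marker list, 13 of 13 genes were tested, and its summed level was 6360 to 7341 CPM (the count of a gene relative to the TMM-scaled total of its library). The sum covers genes that changed in both directions. By the adjusted p-value 3 of the 13 rose and 6 fell, against 27.0% and 25.4% of all genes. Among them were Ptcra (log2 fold change 2.37), Gata3 (-1.67) and Cd4 (-1.16). Genes known to answer to Notch were higher upon washout in 7 of 8 cases past both thresholds, against 7.74% of all genes. The median log2 fold change of these 8 genes was 1.90. Markers of other lineages moved as well, and their part in the results was not tested. The mast and basophil list summed to 166.6 and 274.4 CPM in GSI against 30.5 and 45.7 CPM upon washout, with Fcer1a, Mcpt4 and Tpsb2 at 0 in every library. Only 2 of its 5 genes, Cpa3 and Kit, were high enough to be tested. For the myeloid list the sums were 38.2 to 49.1 CPM against 4.91 to 5.49 CPM, nearly all of it Itgam, and Lyz2 and Elane were at 0. Erythroid genes summed to 10.4 to 12.03 CPM against 4.39 to 4.99 CPM with both globins at 0, and the B lineage list did not exceed 0.548 CPM. In bulk RNA, fewer cells of a type and less RNA per cell cannot be told apart.

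Upon washout, transcripts of the activator Myc went up about 2.00-fold, whereas those of its antagonists Mxd4 and Mxd1 went down 4.94-fold and 3.21-fold. Max and Mxd3 were higher by smaller steps, and Mxi1, Mnt and Mga did not pass the test. The test was edgeR's quasi-likelihood F test, washout over GSI, and p-values were adjusted over all genes tested (Benjamini-Hochberg). A gene was said to rise or fall at an adjusted p-value under 0.05, and it was past both thresholds if its log2 fold change was also above 1 or below -1, the criteria of the study. By these criteria 2 of the 8 members tested were past both thresholds, both lower, and 0 were higher. Among all genes tested 11.7% were lower and 7.74% higher past both thresholds. With the adjusted p-value alone, 3 members rose and 2 fell, against 27.0% and 25.4% of all genes, or 52.5% in either direction. The median log2 fold change of the 8 members was -0.0046, and it was -0.0096 over all genes, with 4 members on either side of 0. In 6 of the 8 members the libraries of the conditions did not overlap, which was the case for 77.3% of all genes.

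**Figure D1:**
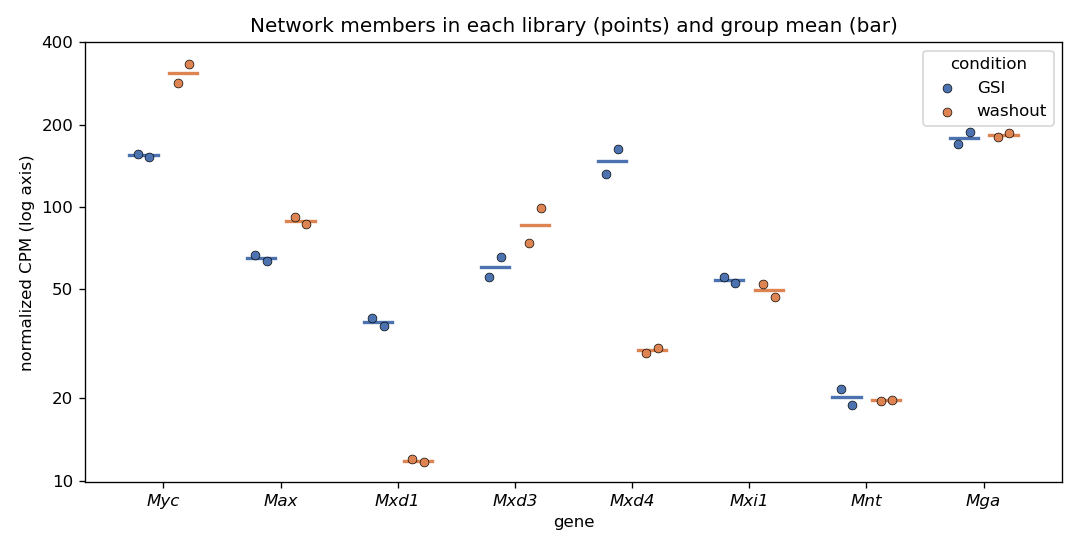
Normalized CPM (log axis) of the 8 tested members in each of the 4 libraries (points) with the mean of each condition (bar). Mxd1 and Mxd4 lie far lower upon washout, Myc lies higher in both washout libraries, and the points of Mnt and Mga overlap between conditions.

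Myc (chromosome 15, 61816946 to 61821929, plus strand, mm9) was the member with the highest level per length in both conditions. It had 5017 and 2220 counts in the GSI libraries and 9644 and 4483 upon washout. In CPM these were 156.7 and 152.1 in GSI against 283.2 and 333.4 upon washout, or 154.4 ± 3.29 against 308.3 ± 35.5 (SD, n = 2). Both washout libraries were above both GSI libraries, and they lay further apart than the GSI pair did. Its log2 fold change was 0.997 (standard error 0.115, 95% interval 0.72 to 1.27, adjusted p = 0.00102 in edgeR's quasi-likelihood test). Myc therefore rose but stayed just under the fold threshold of 1, and it was past both thresholds in 8 of 14 other settings, among them DESeq2 (1.013). With the total count alone as scaling, Myc was at 0.80. Without washout replicate 2 it was at 0.88, and without washout replicate 1 at 1.11.

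The other Myc paralogs were close to absent. Mycn, which is best known from neural progenitors and neuroblastoma, had 0, 0, 1 and 0 counts in GSI replicates 1 and 2 and washout replicates 1 and 2. That is under the limit of 3 counts in every library, which corresponds to 0.0937 and 0.206 CPM in GSI and to 0.0881 and 0.223 CPM upon washout and covers counting error only. Mycl, the remaining paralog, had no more than 0.156 CPM in any library. Neither passed the filter on low counts.

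The 5 genes were looked up whose profile over the 4 libraries, centered on its own mean, was closest to that of Myc among 9279 genes that averaged 3 or more in log2 CPM. They were Rpusd2 (Euclidean distance 0.0158 on the log2 scale), Sf3b5 (0.0420), Mrpl54 (0.0464), Cops7a (0.0630) and Fam72a (0.0678). Rpusd2 went from 15.1 and 14.6 CPM to 27.0 and 32.4 CPM. With 4 libraries in 2 conditions such a distance mainly finds genes with a similar change.

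Max (chromosome 12, 78038256 to 78063235, minus strand), the partner that the other members share, had 66.6 and 63.6 CPM in GSI against 91.9 and 86.4 CPM upon washout. The washout libraries were again both higher, and the pairs lay close together. Max rose by 0.45 on the log2 scale (standard error 0.0922, adjusted p = 0.00789, same test), a 1.37-fold change and a smaller one than that of Myc. Its adjusted p-value was 0.0611 with the total count alone and 0.0617 without GSI replicate 2. Per kb of exon, the ratio of Max to Myc was 0.576 and 0.566 in GSI and 0.440 and 0.351 upon washout.

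Mxd4 (chromosome 5, 34516536 to 34530369, minus strand), a repressor of the Mxd family, showed the greatest fall of the 9 genes. Counts of Mxd4 were 4217 and 2388 in GSI but only 998 and 410 upon washout. These correspond to 131.7 and 163.6 CPM against 29.3 and 30.5 CPM. No washout library came near a GSI library, although the GSI pair itself differed. The log2 fold change of Mxd4 was -2.30 (standard error 0.132, adjusted p = 0.000297, same test), and it lay between -2.50 and -2.01 in the 14 other settings.

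Mxd1 (chromosome 6, 86597038 to 86619153, minus strand), the founding member of the Mxd family, is known from the terminal differentiation of blood cells. In GSI its libraries had 1253 and 538 counts, or 39.1 and 36.9 CPM. Upon washout they had 408 and 157 counts, or 11.98 and 11.7 CPM. Replicates were close in both conditions and the conditions did not overlap. Mxd1 fell by 1.68 on the log2 scale (standard error 0.117, adjusted p = 0.000343, same test), and its log2 fold change was between -1.88 and -1.58 in the other settings.

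Mxd3 (chromosome 13, 55426529 to 55431119, minus strand) is the family member known from cycling progenitors, and it moved the other way. Its libraries had 55.5 and 65.6 CPM in GSI against 73.7 and 98.8 CPM upon washout, so that the conditions did not overlap but replicates lay apart in both. Its log2 fold change was 0.51 (standard error 0.164, adjusted p = 0.0399, same test). The adjusted p-value of Mxd3 rose to 0.146 with the total count alone, 0.0520 with at least 10 counts in every library, 0.176 without GSI replicate 1 and 0.111 without washout replicate 2. Its log2 fold change was 0.29 without washout replicate 2 and 0.72 without washout replicate 1. An exon of Mxd3 shares 104 bases with Prelid1 on the other strand, and the strand setting of the counting is not given in the sources used here.

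Mxi1 (chromosome 19, 53384996 to 53450300, plus strand), the Mxd family member also called Mxd2, had 55.5 and 52.7 CPM in GSI against 52.4 and 47.1 CPM upon washout. The washout values were slightly the lower ones. The log2 fold change was -0.12 (95% interval -0.37 to 0.13, adjusted p = 0.371, same test), and -0.32 (adjusted p = 0.0435) with the total count alone. Counts are per gene, so the separate starts of Mxi1 cannot be told apart. It shares 194 exon bases with Gm10197 on the other strand.

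**Figure D2:**
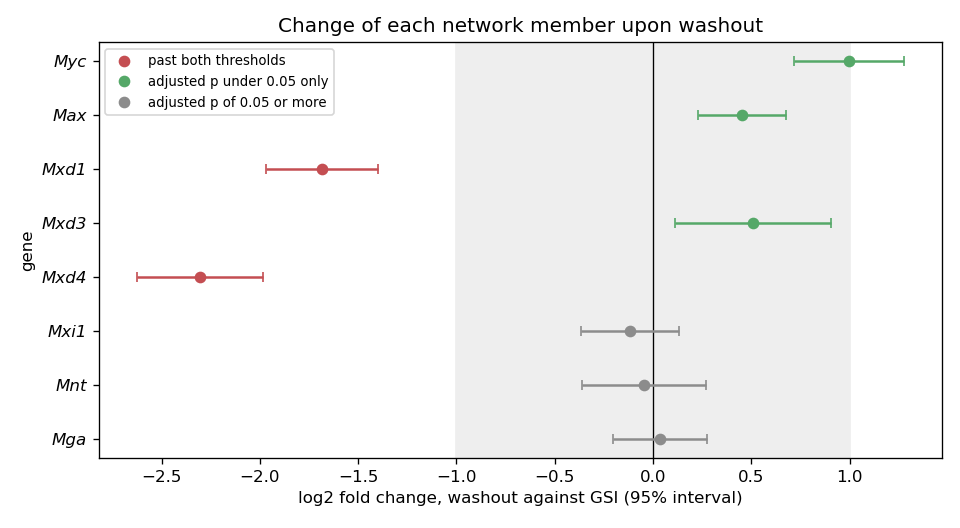
Log2 fold change of each tested member upon washout (point) with its 95% interval (bar), where the gray band spans log2 fold changes from -1 to 1. Mxd1 and Mxd4 lie outside the band on the lower side, Myc lies at its upper edge, and the intervals of Mxi1, Mnt and Mga include 0.

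Promoter windows of the members, whether or not they changed, were searched for motifs around the start sites. The windows are RefSeq sequences of the GRCm38.p6 build, reaching from 250 bases before to 50 bases after the start, and each of the 10 member windows had a single exact match in mm9, from which the positions were taken. They covered 8 of the 9 genes, all but Myc, with 3 windows for Mxi1. The E-box CACGTG, which reads the same on both strands, was found in the windows of Mxd4, Mnt and Max, against 7.17% of all 32544 windows. The RBPJ core motif TGGGAA was searched on both strands (TTCCCA on the other strand, with no overlap with the E-box). It was found for Mxd3 and in 2 windows of Mxi1, or 3 of 10 member windows, against 25.4% of all windows. The 250 bases upstream of Mxd4 (chr5:34530360-34530609, minus strand) and Mxd1 (chr6:86619154-86619403, minus strand) are printed because these genes fell past both thresholds. Capitals mark the E-box:
Mxd4: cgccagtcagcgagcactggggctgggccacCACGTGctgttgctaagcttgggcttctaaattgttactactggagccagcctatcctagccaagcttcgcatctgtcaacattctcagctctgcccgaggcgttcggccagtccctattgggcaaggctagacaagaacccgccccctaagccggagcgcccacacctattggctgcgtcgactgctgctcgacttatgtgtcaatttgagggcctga
Mxd1: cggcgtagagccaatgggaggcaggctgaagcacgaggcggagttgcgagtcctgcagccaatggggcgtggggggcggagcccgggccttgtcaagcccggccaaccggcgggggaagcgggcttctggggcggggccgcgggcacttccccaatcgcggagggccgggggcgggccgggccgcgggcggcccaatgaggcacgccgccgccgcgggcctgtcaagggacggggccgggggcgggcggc

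In Mxd4 the first base of the E-box lies 219 bases before the start, and the Mxd1 window holds neither motif. Matches of the other members are shown with 30 bases each, with the match in capitals, for comparison with Mxd4. Not shown is the match in the first Mxi1 window, where the RBPJ core begins 206 bases before the start. For Max (chr12:78063221-78063250, minus strand) the E-box begins 3 bases before the start, and for Mnt (chr11:74644291-74644320, plus strand) it begins 123 bases before it. For Mxd3 (chr13:55431167-55431196, minus strand) the RBPJ core begins 92 bases before the start, and for the second Mxi1 window (chr19:53403863-53403892, plus strand) 28 bases before it:
Max: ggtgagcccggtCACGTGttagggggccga
Mnt: ccccacccaagcCACGTGtgcgcgcgcggt
Mxd3: gggcggacggggTTCCCAtgggcggggcgg
Mxi1: gcgggactacatTTCCCAgggggcagcgga

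Genes with the E-box thus comprise Mxd4, which fell, Max, which rose, and Mnt, which did not pass the test. These matches describe the letters in the windows and not binding.

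Mnt and Mga are the large and widely expressed partners of Max. Mnt (chromosome 11, 74644422 to 74659227, plus strand), a repressor that acts through Sin3 much as the Mxd proteins do, had 21.6 and 18.9 CPM in GSI against 19.6 and 19.8 CPM upon washout. The washout libraries lay between the GSI libraries. The log2 fold change of Mnt was -0.045 (95% interval -0.36 to 0.27, adjusted p = 0.793, same test), and it was 0.35 with an offset for GC content and exon length. Mga (chromosome 2, 119722964 to 119795317, plus strand) combines a T-box with a Max-binding domain and belongs to the repressor complex PRC1.6. It had 170.6 and 187.7 CPM in GSI against 180.5 and 186.6 CPM upon washout, again with the washout libraries inside the range of the others. The log2 fold change of Mga was 0.036 (95% interval -0.20 to 0.27, adjusted p = 0.782, same test), turned to -0.16 with the total count alone and was 0.32 (adjusted p = 0.0453) with the offset for GC content and length.

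Levels of different genes were compared per kb of merged exon (CPM per kb). In GSI the order was Myc (56.8), Mxd4 (38.0), Max (32.5), Mxd3 (29.1), Mga (11.7), Mxi1 (9.62), Mxd1 (8.15) and Mnt (4.37), and no neighbors in this order had overlapping library ranges. Upon washout the order was Myc (113.5), Max (44.4), Mxd3 (41.5), Mga (11.97), Mxi1 (8.85), Mxd4 (7.70), Mnt (4.25) and Mxd1 (2.54). Only the ranges of Max and Mxd3 overlapped in this second order. Mxd4 thus went from the second to the sixth place, and Mxd1 fell behind Mnt. The aligner was set to a maximum intron of 3000 bases, so that reads across longer introns could be lost. Such introns make up 4 of 6 in Max, 7 of 33 in Mga, 3 of 7 in Mxi1 and 2 each in Mxd1, Mxd4 and Mnt, and 0 in Myc and Mxd3. The effect on levels between genes was not tested, and the setting was the same in every library.

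As 1 view of the balance in the network, the level per kb of each partner of Max was expressed as a share of the sum over Myc, Mycn, Mxd1, Mxd3, Mxd4, Mxi1, Mnt and Mga. Myc made up 37.9% and 34.3% of this sum in the GSI libraries and 59.5% and 59.7% upon washout. The mean share of Myc was 23.6 percentage points higher upon washout, with a replicate SD of 2.53 in GSI and 0.161 upon washout (n = 2). Mxd4 made up 22.3% and 25.8% in GSI and 4.31% and 3.82% upon washout, and Mxd1 5.51% and 4.84% against 1.47% and 1.22%. The Mxd family as a whole (Mxd1, Mxd3, Mxd4 and Mxi1) held 51.8% and 55.7% in GSI but 31.3% and 32.2% upon washout. Within the family Mxd3 had the highest share upon washout, with 20.2% and 23.1%. The level of Myc per kb was 1.70 and 1.33 times that of Mxd4 in GSI and 13.8 and 15.6 times upon washout. Against Mxd3 this ratio changed less, from 2.16 and 1.77 to 2.94 and 2.58. No test was attached to these shares, which concern transcripts and not proteins.

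**Figure D3:**
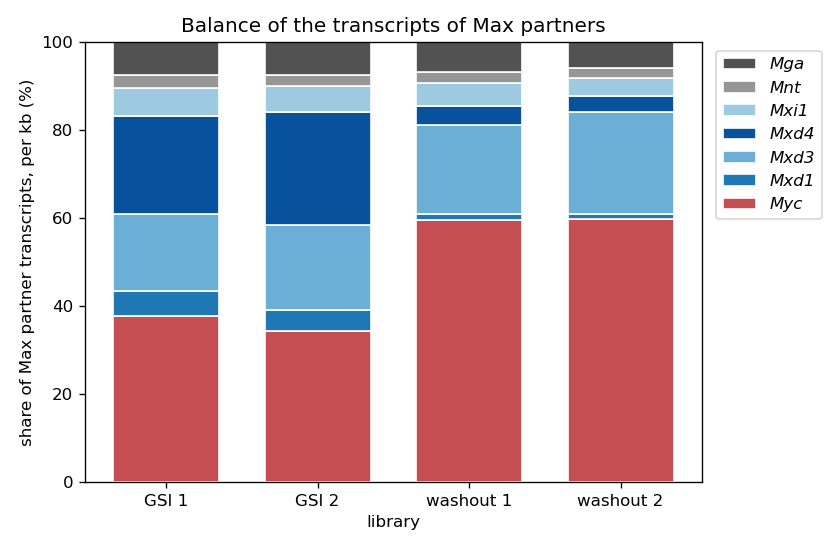
Share of each partner of Max in the summed level per kb of all partners (stacked bars, percent) in each of the 4 libraries, with Mycn left out because its share did not exceed 0.00509%. Myc takes 34.3% to 37.9% of the bar in GSI and 59.5% to 59.7% upon washout, where the Mxd4 part is the one that shrinks most.

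Genes that work with the network were followed by lists, which were chosen with earlier results of these data known. Classical targets that Myc activates were mostly higher upon washout: 26 of 30 were higher past both thresholds, against 7.74% of all genes. Lower past both thresholds was 1 gene, against 11.7% of all genes, and the median log2 fold change was 1.63. Srm, the spermidine synthase, rose from 22.1 and 26.8 CPM to 144.4 and 135.2 CPM (log2 fold change 2.52). Shmt2, of mitochondrial serine metabolism, rose by 2.19, the nucleolar GTPase gene Gnl3 by 2.14 and the chaperonin gene Hspd1 by 2.14. Cdk4 and the cap-binding factor Eif4e rose by less than the fold threshold, at 0.82 and 0.85. Cyclin D2 (Ccnd2) was the 1 gene of the list that fell, from 41.3 and 41.6 CPM to 8.05 and 5.88 CPM (log2 fold change -2.54). Tert, the telomerase subunit, had 3.09 and 5.62 CPM in GSI against 1.88 and 4.54 CPM upon washout (log2 fold change -0.48, adjusted p = 0.450, same test). Many of these genes are also growth genes in general, and their median is given here as a description beside -0.0096 for all genes.

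Of 8 classical targets that Myc represses, 6 were tested, and their median was -0.59. Of these, 2 were lower past both thresholds, against 11.7% of all genes. With DESeq2 or no filter beyond 1 count all 8 were fitted, and the median was -1.04 or -0.95. These medians include 2 genes with very low counts. In GSI replicates 1 and 2 and washout replicates 1 and 2, Cdkn2b had 0, 1, 0 and 0 counts. Thbs1 had 15, 1, 7 and 0 counts in the same order. Cdkn1a, the CDK inhibitor p21, fell from 118.1 and 124.3 CPM to 22.2 and 18.5 CPM (log2 fold change -2.56). The stress gene Gadd45a fell by 1.32 on the log2 scale, with washout replicates of 33.5 and 15.99 CPM. With the total count alone 3 genes of the list were past both thresholds on the lower side, against 1961 of all 12266 genes. Without washout replicate 2 the median of the list was -0.75. On the higher side, 1 gene was past both without GSI replicate 1 or without washout replicate 1, at a log2 fold change of 1.006 or 1.027. Cdkn1b (p27) was lower at -0.82 and Fth1 (ferritin heavy chain) at -0.33, both with an adjusted p-value under 0.05. Ndrg1 moved the other way, at 0.83, and Ndrg2 did not pass the test. Cdkn2b and Thbs1 were too low to be tested.

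**Figure D4:**
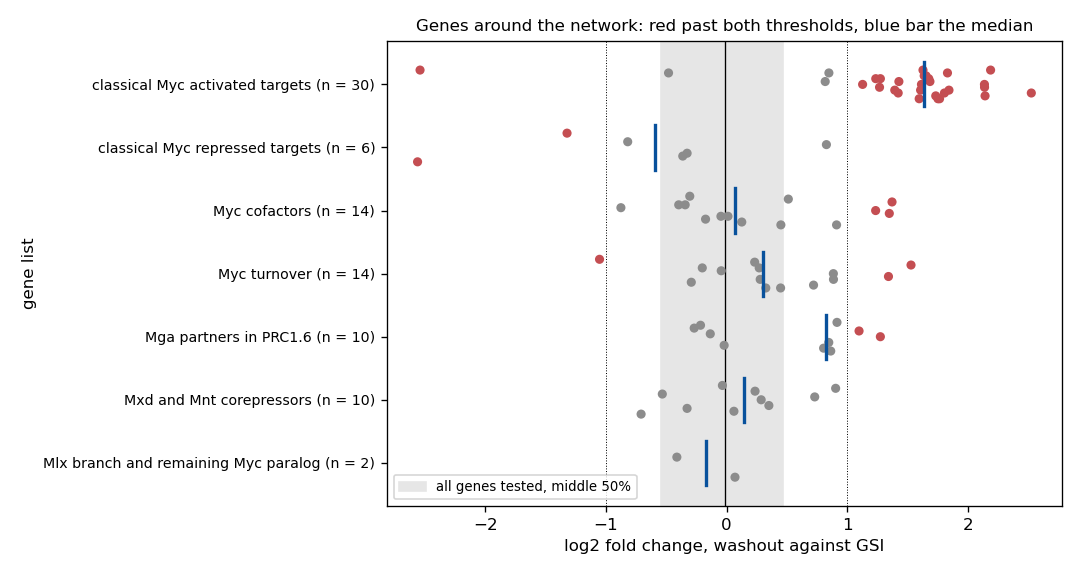
Log2 fold change upon washout of each tested gene (point) in 7 lists around the network, with the list median (blue bar), the middle 50% of all genes tested (gray band, -0.55 to 0.47) and the fold thresholds (dotted). Red points are past both thresholds: most activated targets lie to the right of the band at a median of 1.63, and Ccnd2 lies far to the left.

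Cofactors of Myc included genes on both sides, with 6 that rose and 4 that fell by the adjusted p-value, against 27.0% and 25.4% of all genes. Of 14 genes, 3 were higher past both thresholds, against 7.74% of all genes. These were the AAA+ ATPase genes Ruvbl1 (1.37) and Ruvbl2 (1.35) and the acetyltransferase gene Kat2a (1.24). Actl6a, which sits in some of the same complexes, rose by 0.91. In the same list the acetyltransferase gene Ep300 fell by 0.88, the scaffold gene Trrap by 0.40, the remodeler gene Bptf by 0.34 and the elongation kinase gene Cdk9 by 0.30, all log2 values with an adjusted p-value under 0.05. Of these 4 falls the list kept a count of 1 without GSI replicate 1, without GSI replicate 2 or with the offset for GC content and length, and 2 without washout replicate 1. With the offset 10 genes of the list were higher by the adjusted p-value, against 3722 of 10962 genes. The median of the list was then 0.31, and that of all genes 0.067. The median of the list was 0.069 and turned to -0.13 with the total count alone. With the total count alone, 1 gene of the list was past both thresholds on the lower side, against 1961 of all 12266 genes.

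Of 14 genes for Myc protein turnover, 2 were higher and 1 was lower past both thresholds, against 7.74% and 11.7% of all genes. The median of the list was 0.30, and it was 0.10 with the total count alone and 0.58 with the offset for GC content and length. Set, an inhibitor of the phosphatase PP2A, rose by 1.53, and Skp2, an F-box protein that marks Myc for degradation, rose by 1.34. C330027C09Rik (Cip2a), another PP2A inhibitor, rose by 0.89. Fbxo32, an F-box gene, fell from 26.3 and 19.4 CPM to 11.4 and 10.7 CPM (log2 fold change -1.05), but 0 genes of the list were lower past both thresholds without GSI replicate 1 or with libraries thinned to 1 total. Fbxw7, the ubiquitin ligase best known for Myc and for the Notch intracellular domain, had 104.0 and 92.4 CPM in GSI against 99.6 and 90.9 CPM upon washout, and its adjusted p-value was 0.746 in the same test.

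Partners of Mga in PRC1.6 had a median of 0.83, and 6 of 10 rose by the adjusted p-value, against 27.0% of all genes. By the same measure 0 fell, against 25.4% of all genes. Past both thresholds 2 were higher, against 7.74% of all genes. Both of these, Tfdp1 (1.27) and E2f6 (1.10), encode the E2F part of the complex. The first also serves the other E2F factors of the cell cycle. Pcgf6, the Polycomb subunit that defines PRC1.6, rose by 0.91 and Cbx3 by 0.86. Yaf2 (-0.27), Rybp (-0.22), Ring1 (-0.13) and Rnf2 (-0.020), which are shared with other Polycomb complexes, did not pass the test. The number past both thresholds was 1 with the total count alone, 3 without GSI replicate 1 or with the offset for GC content and length, and 4 without washout replicate 2. The number that fell was 2 with the offset, against 2600 of 10962 genes. Without washout replicate 1 the lowest log2 fold change in the list was -0.53.

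Corepressors of the Mxd proteins and Mnt had 0 of 10 genes past both thresholds, against 19.5% of all genes. By the adjusted p-value 4 rose and 3 fell, against 27.0% and 25.4% of all genes. These counts were 2 and 1 without GSI replicate 1, 2 and 2 without GSI replicate 2 or without washout replicate 2, and 2 and 3 with DESeq2. Sap30 (0.90) and Hdac2 (0.73) rose most, followed by Brms1 (0.35) and Sin3a (0.29). Sin3a is among the Sin3 proteins that Mxd factors contact directly. Arid4a (-0.71), Arid4b (-0.53) and Ncor1 (-0.33) fell, and Hdac1 (-0.034) did not pass the test. Without washout replicate 1, 1 gene was past both thresholds on the higher side. The median of 0.15 turned to -0.050 with the total count alone and was 0.34 with the offset for GC content and length. Leaving out GSI replicate 1 or washout replicate 2 gave a median of 0.070 or 0.060, and leaving out GSI replicate 2 or washout replicate 1 gave 0.23 in both cases.

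The Mlx branch, a parallel network that answers to sugar levels, touches this one through Mxd1, Mxd4 and Mnt, which can also pair with Mlx. Mlx had 46.3 and 54.5 CPM in GSI against 51.3 and 54.4 CPM upon washout, with a log2 fold change of 0.070 that did not pass the test (adjusted p = 0.638, same test). Mlxip (MondoA) fell by 0.41 on the log2 scale (standard error 0.134, adjusted p = 0.0410, same test), from 46.3 and 57.6 CPM to 37.5 and 40.5 CPM. In the Mlx branch 0 genes fell by the adjusted p-value with DESeq2, without GSI replicate 2, without washout replicate 1 or with the offset for GC content and length, where the lowest log2 fold change was -0.081. Mlxipl was listed at 0 counts in every library.

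**Figure D5:**
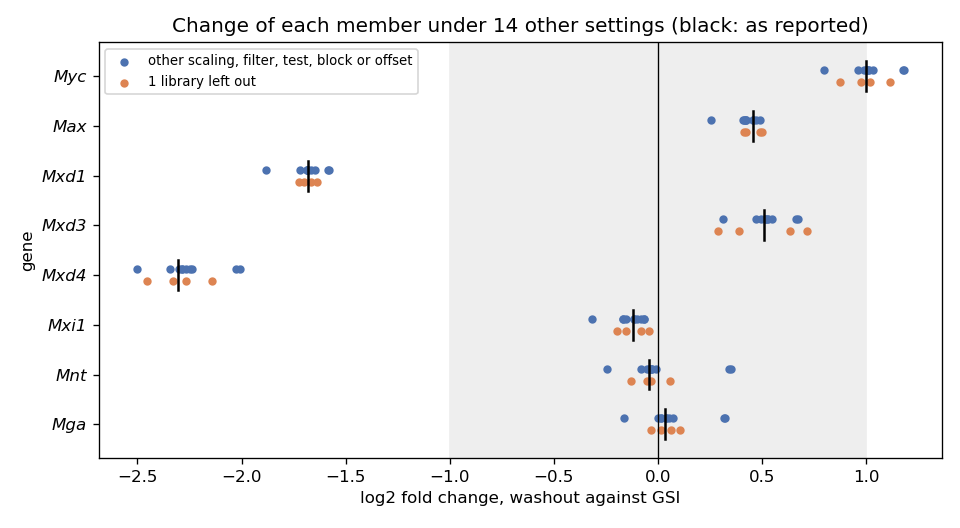
Log2 fold change of each member upon washout under 14 other settings, 4 of which leave out 1 library (orange), with the reported value as a black line and the band from -1 to 1 in gray. Mxd1 and Mxd4 stay below -1 in all of them, Myc scatters from 0.80 to 1.18 around the threshold, and Mnt and Mga fall on both sides of 0.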

How the data were processed

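RNA-Seq of 4 libraries of Beko cells was used. Reads were trimmed (trimGalore) and mapped to the mm9 genome (HISAT2 2.2.1) by the authors, who deposited raw counts per gene, made with summarizeOverlaps over an iGenomes annotation, without normalization or pooling. All columns were used. Conditions and replicates come from the library titles. Counts were analyzed with edgeR 4.0.16 in R 4.3.3: low counts were removed with filterByExpr, libraries were scaled by TMM, dispersions came from estimateDisp, and the quasi-likelihood F test had no covariates and Benjamini-Hochberg adjustment. Standard errors were derived from log2 fold changes and F values. The common biological coefficient of variation was 0.121. Replicates differed by more than sampling noise (chi-square per degree of freedom 18.2 and 28.5). On data simulated for this comparison over 12266 genes, with 200 changed by 1.5 on the log2 scale, 168 were recovered with 3 false calls. In the data itself 52.5% of genes passed the adjusted p-value. Recovery with that many changes, or of changes smaller than 1.5, was not tested. Positions and exon lengths are from GENCODE vM1 (mm9), where 20641 symbols matched 1 gene. Members and lists were chosen with earlier results of these data known. From each other list, up to 4 genes with the highest and 4 with the lowest log2 fold change were named, besides checks and the 5 genes most like Myc. Alternatives were DESeq2 1.42.0, RLE or total-count scaling, other filters, the replicate number as a block, thinned libraries, a GC content and length offset, the adjusted p-value alone, glmTreat and leaving out each library. Intervals of log2 fold changes are at 95%.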

Additional observations from a re-analysis of the deposited data

How the results depend on the processing

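Mxd1 and Mxd4 were past both thresholds, both lower, in all 14 refits, and Myc had an adjusted p-value under 0.05 in all of them. Myc crossed the fold threshold in 8, so that 1 member in place of 0 was higher past both thresholds with DESeq2 (1.013), no filter beyond 1 count (1.03), thinned libraries without or with the block (1.007 and 1.003), the GC content and length offset without or with the block (1.18 and 1.17), without GSI replicate 1 (1.02) and without washout replicate 1 (1.11). The count of higher members was thus 0 to 1 with 1 library left out. These fits take the lone library of a condition to vary like the others. With the adjusted p-value alone 5 members passed, 3 of them higher, and of all genes 6435 passed, 3315 higher and 3120 lower. With glmTreat against a log2 fold change of 1, 809 of all genes passed, 308 higher and 501 lower. Against 2387 genes past both thresholds, 950 of them higher and 1437 lower, the total count alone gave 587 higher ones and moved all genes by -0.20, which takes the higher share of called genes from 39.8% to 23.0%. Directions turned for Mga with the total count alone (-0.16), with at least 10 counts in every library (-0.0024) and without GSI replicate 1 (-0.032, with up to 0.11 without GSI replicate 2), and for Mnt without GSI replicate 1 (0.058, with down to -0.13 without GSI replicate 2) and with the offset without or with the block (0.35 and 0.34). List medians turned for the Mlx branch with DESeq2 (0.014, over 3 genes in place of 2, since Mycl was included), for the corepressors (-0.050) and Myc cofactors (-0.13) with the total count alone, and for the cofactors without washout replicate 2 (-0.0041, with up to 0.17 without washout replicate 1). The share of Myc differed by 21.0 percentage points without division by length, against 23.6, and by 22.4 with the longest transcript, a setting chosen after seeing the data. The causes were not tested.

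Replicate numbers are shared between conditions, with no label that ties them to a batch. Deviations from the condition means correlated at 0.497 between equal numbers, which with 2 libraries per condition is 1 value for both pairs. With the number as a block Myc was at 0.99 and 2 members were past both thresholds, as without it, both lower, and 2557 of all genes were, against 2387. The offset with the block gave Mnt an adjusted p-value of 0.00845 in edgeR's quasi-likelihood test. With the block, 2 of 10 partners of Mga fell by the adjusted p-value, against 4216 of all 12266 genes. With the offset and the block 3 of 10 did, against 3376 of 10962 genes. For Mycn, depth limits any statement to the 3-count level.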
